A study of Mus musculus with 12 samples.

Results

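Iron handling and its hormonal control were followed through 10 genes in mouse liver: the hepcidin genes Hamp and Hamp2, their upstream ligand gene Bmp6, the receptors Tfr2 and Tfrc, the carrier Trf, the ferritin heavy chain Fth1, the iron exporter Slc40a1 and the metallothioneins Mt1 and Mt2. The genes were taken by name from the deposited table, and all 10 were found among its 25676 genes. Expression had been measured by bulk RNA sequencing of whole liver from 12 mice, 1 library per mouse. A Foxa3-Cre YAP1 knockout (KO, 6 mice) was compared with WT (6 mice), each genotype represented by 3 males and 3 females on a C57BL/6 background at an age of 3 to 4 months. Foxa3 is active in the embryonic endoderm that forms hepatocytes and bile duct cells, and YAP1 co-activates transcription through TEAD factors. The labels do not describe the Yap1 allele, nor whether WT mice carried Cre.

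Iron circulates bound to transferrin, the product of Trf, which hepatocytes secrete. Cells take it up through transferrin receptor 1 (Tfrc), store it in ferritin, built from heavy (Fth1) and light chains, and export it through ferroportin (Slc40a1). Hepcidin, made by hepatocytes, binds ferroportin and causes its degradation, so it limits the iron that enters blood. Its transcription rises when BMP6, made mainly by liver sinusoidal endothelial cells, signals through SMAD factors, and when interleukin 6 signals through STAT3. Transferrin receptor 2 (Tfr2) is a hepatocyte sensor of transferrin-bound iron. Mice have a second hepcidin gene, Hamp2. Metallothioneins bind zinc and copper and are induced by metals, glucocorticoids and inflammation.

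Values were TPM, transcript abundances divided by length and scaled to a fixed total, which can be compared between genes. Steps in the low values together with GENCODE exon lengths gave an estimated 24800000 to 35200000 reads per library. This estimate depends on lengths that need not be the authors' own. Between 14321 and 15482 genes were above 0 TPM in a library. Yap1 was at 23.0 to 34.9 TPM in WT and 0.994 to 3.11 TPM in KO, and summed Y-linked genes separated the labelled sexes without overlap. WT male 2 had a library number from another series than all other libraries, the fewest genes above 0 TPM and the lowest factor by median-of-ratios rescaling (0.724). Whether its library was prepared separately is not stated. The major urinary protein genes took 3.14 to 15.8% of each WT library and 0.160 to 0.836% of each KO library. TPM sum to a fixed total, and the 12278 tested genes had a median log2 difference of 0.35 (KO minus WT). Median-of-ratios rescaling, which divides each library by its typical ratio to the others, moved that median to -0.04. Values on the rescaled scale are therefore given beside those as deposited. A gene is said to have risen or fallen in KO where its limma adjusted p was under 0.05. All 10 hepatocyte markers were above 0 in every library. Their sum, most of it Alb, was 90180 to 115062 TPM in WT and 66104 to 89013 TPM in KO, while 2 rose, 3 fell and 5, Alb among them, did not pass (median 0.04), and after rescaling 0 rose and 4 fell. The summed level of 10 Kupffer cell and macrophage markers was 72.8 to 237 TPM in WT and 359 to 743 TPM in KO, and all 10 rose (9 after rescaling). Over all genes 50.1% rose and 4.82% fell as deposited, and 20.9% rose and 18.7% fell after rescaling. In whole liver, more or fewer cells of a type and more or less RNA per cell cannot be told apart.

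The upstream sequences of the paired genes are shown first, because each pair lies close together on its chromosome and has related transcripts. The values of the 2 hepcidin genes differed across the groups. Each is the 250 bases before the RefSeq transcription start (GRCm38.p6), 5′ to 3′ on the strand of the gene. Such windows were found for 8 of the 10 genes. In the hepcidin genes, capitals mark the letters GGCGCC, the core of the BMP-responsive element known in hepcidin promoters, and TTCNNNGAA, the letters of a STAT site. In the metallothionein genes they mark TGCGCNC or TGCACNC, the core of the metal-responsive element, on either strand. The windows lie at chr7:30944030-30944279 (Hamp, minus strand), chr7:30924182-30924431 (Hamp2, minus strand), chr8:94178839-94179088 (Mt1, plus strand) and chr8:94172368-94172617 (Mt2, plus strand). GENCODE places the start of 2 Hamp2 transcripts next to the window and that of 1 upstream of it, at chr7:30924681, so that the whole Hamp2 window lies in the first intron of that transcript. Its starts for Mt2 lie downstream of the Mt2 window. Of its Mt1 starts, chr8:94179082 lies within the Mt1 window near its end, while chr8:94179211 and chr8:94179241 lie downstream of it.
Hamp: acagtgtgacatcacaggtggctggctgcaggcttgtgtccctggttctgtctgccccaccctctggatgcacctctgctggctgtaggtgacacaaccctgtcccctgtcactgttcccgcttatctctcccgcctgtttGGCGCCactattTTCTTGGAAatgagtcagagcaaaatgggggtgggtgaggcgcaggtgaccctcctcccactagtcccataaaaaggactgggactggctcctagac
Hamp2: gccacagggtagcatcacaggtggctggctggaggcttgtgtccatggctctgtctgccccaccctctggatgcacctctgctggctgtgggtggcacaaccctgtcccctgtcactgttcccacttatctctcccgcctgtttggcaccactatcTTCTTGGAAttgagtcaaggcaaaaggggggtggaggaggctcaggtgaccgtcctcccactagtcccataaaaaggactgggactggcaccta
Mt1: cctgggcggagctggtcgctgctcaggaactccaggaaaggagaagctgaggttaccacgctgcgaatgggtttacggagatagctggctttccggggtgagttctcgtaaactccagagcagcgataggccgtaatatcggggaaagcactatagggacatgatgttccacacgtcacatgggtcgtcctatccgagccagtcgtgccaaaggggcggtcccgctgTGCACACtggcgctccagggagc
Mt2: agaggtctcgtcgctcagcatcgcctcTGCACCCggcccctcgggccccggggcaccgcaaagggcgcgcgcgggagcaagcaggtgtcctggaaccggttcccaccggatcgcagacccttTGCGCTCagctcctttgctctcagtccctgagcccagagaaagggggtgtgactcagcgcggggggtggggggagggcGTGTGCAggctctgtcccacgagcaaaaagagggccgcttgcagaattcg

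The 2 hepcidin windows were identical at 227 of 247 aligned bases (91.9%). Those of the metallothioneins aligned over 78 bases only, of which 43 were identical (55.1%). Hamp carried the BMP letters 109 to 104 bases before its start and the STAT letters 97 to 89 bases before it. Hamp2 carried the same STAT letters 94 to 86 bases before its start. At the aligned place of the BMP letters it differed by the substitution G4A, counted from 1 at the first base of the element in Hamp, so the GGCGCC letters were not in its window. Of 32851 mouse windows of this length, 9.59% held the BMP letters, 7.02% the STAT letters and 0.368% both. The metal letters were found once in the Mt1 window and 3 times in the Mt2 window. Bases between these windows and the GENCODE starts downstream of them were not searched. At least 1 such match was present in 21.4% of all windows and at least 3 in 1.26%. A match describes letters in a window and shows no binding.

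Fth1, Slc40a1 and Tfrc also carry the letters of an iron-responsive element in their transcripts, the stem-loop that iron regulatory proteins bind when iron is low. Such binding in a 5′ UTR blocks translation, and in a 3′ UTR it stabilises the transcript. The search asked for an unpaired C, 5 bases of stem, the loop CAGTGN and 5 bases that pair with the stem, in GENCODE M21 transcripts (GRCm38). The printed 17 bases begin at that C, and capitals mark the loop. Fth1 held 1 in its 5′ UTR (chr19:9982738-9982754, plus strand) and Slc40a1 held 1 in its 5′ UTR (chr1:45925471-45925487, minus strand). Tfrc held 4 in its 3′ UTR, the first of them at chr16:32631225-32631241 (plus strand). No match was found in the UTRs of the other 7 genes. A match was present in 0.138% of 22527 coding genes in the 5′ UTR and in 0.639% in the 3′ UTR.
Fth1: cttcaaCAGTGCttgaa
Slc40a1: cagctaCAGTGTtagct
Tfrc site 1: cggaagCAGTGCcttcc
Tfrc site 2: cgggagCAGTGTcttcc
Tfrc site 3: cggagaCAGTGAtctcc
Tfrc site 4: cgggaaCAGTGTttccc

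In the KO livers, 7 of the 10 genes were higher (Bmp6, Mt2, Trf, Mt1, Slc40a1, Fth1 and Tfr2) and 1, Hamp2, was lower (limma on log2(TPM + 1) with sex as covariate, Benjamini-Hochberg adjusted p under 0.05). Hamp and Tfrc did not pass. Over all tested genes 54.9% passed, 50.1% higher and 4.82% lower, so the number of genes called higher here is read against a general upward shift. The median log2 fold change of the 10 genes was 0.83. After rescaling, 4 genes were higher (Bmp6, Mt2, Trf and Fth1) and 2 lower (Hamp and Hamp2), against 20.9% and 18.7% of all genes, and the median of the 10 was 0.38. On both scales 5 genes passed in the same direction. All 6 KO values lay above all 6 WT values for 4 genes, Bmp6, Tfr2, Trf and Fth1, a separation in this direction that 28.7% of all tested genes showed.

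**Figure D1:**
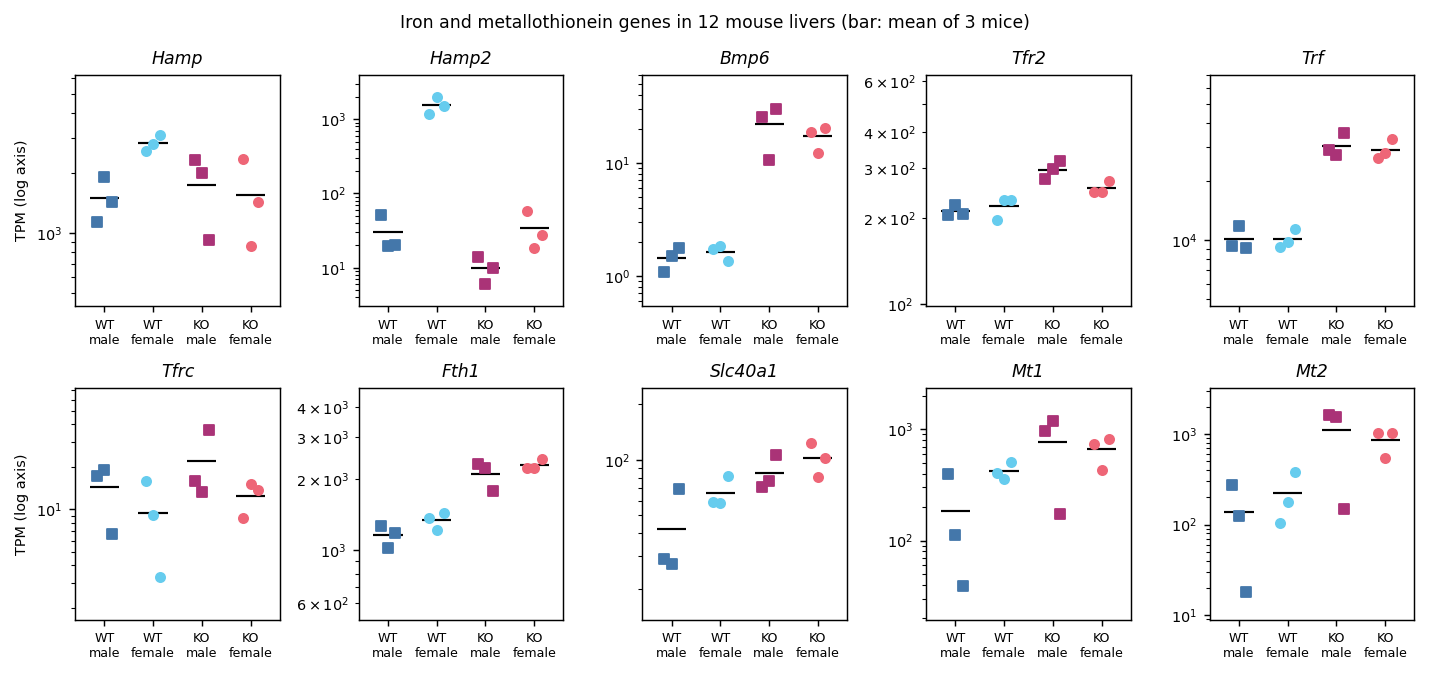
TPM of the 10 genes in each of the 12 livers (log axis, 1 panel per gene), with squares for males, circles for females and a bar at the mean of 3 mice. Hamp2 is above 1170 TPM in the 3 WT females alone, Bmp6 and Trf separate the genotypes, and Mt1 and Mt2 spread widely among males of either genotype.

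**Figure D2:**
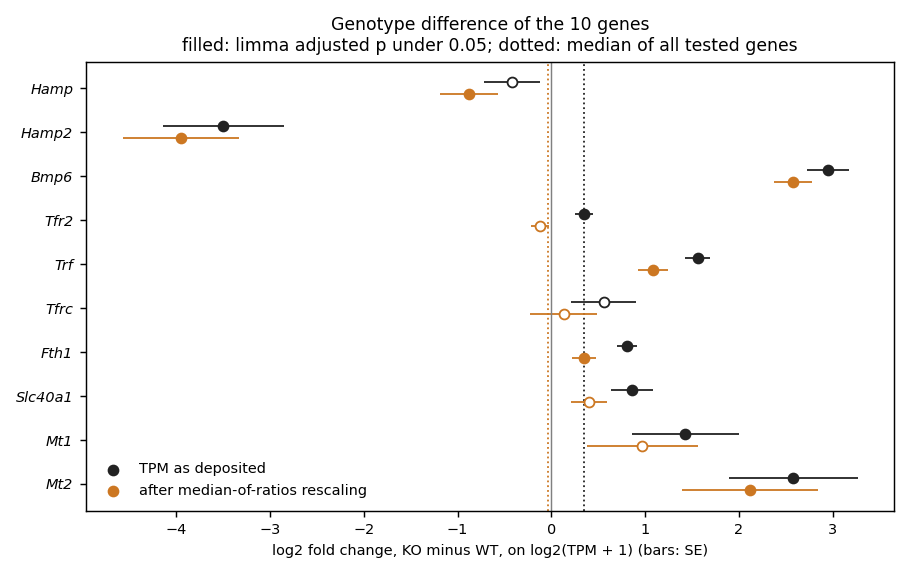
Log2 fold changes, KO minus WT, of the 10 genes with their standard errors, for TPM as deposited (black) and after median-of-ratios rescaling (orange); filled points passed the adjusted threshold. The dotted lines mark the medians of all tested genes, 0.35 and -0.04, and Tfr2, Slc40a1 and Mt1 pass only as deposited while Hamp passes only after rescaling.

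Hamp2 was far lower in KO females than in WT females. It was at 1174, 1990 and 1525 TPM in the 3 WT females and at 57.9, 18.3 and 27.5 TPM in the 3 KO females. The groups did not overlap, and the difference was -5.58 (SE 0.436, limma adjusted p = 1.36e-06), a 47.9-fold lower level on the log2(TPM + 1) scale. WT males were already low, at 51.3, 19.4 and 20.1 TPM, and KO males were lower still, at 13.9, 6.06 and 10 TPM. The male difference of -1.43 (adjusted p = 0.0184, limma) did not pass without WT male 1 (-0.98, adjusted p = 0.0785) or without KO male 2 (-1.14, adjusted p = 0.0720). Over both sexes the difference was -3.50 (SE 0.643, adjusted p = 4.93e-04 by limma), and -3.95 after rescaling.

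Hamp, the gene for the circulating hormone, passed over both sexes on the rescaled scale only. It was at 2571, 2800 and 3119 TPM in WT females and at 2339, 858 and 1439 TPM in KO females. All KO females were below all WT females, but the difference of -0.99 (SE 0.372) had a limma adjusted p of 0.0584. It passed in 7 of 24 alternative analyses, among them rescaling (-1.34, adjusted p = 0.0300, limma), leaving out KO male 3 (adjusted p = 0.0287) and leaving out KO female 1 (-1.34, adjusted p = 0.0169). Without KO female 2, the lowest of the KO females, it shrank to -0.62 (adjusted p = 0.216, limma). WT males held 1136, 1915 and 1438 TPM and KO males 2314, 1998 and 924 TPM. These ranges overlapped, and the male difference was 0.15 as deposited and -0.43 after rescaling, neither past the threshold. Over both sexes Hamp was at -0.42 (SE 0.300, adjusted p = 0.253, limma) as deposited and at -0.88 (adjusted p = 0.0373) after rescaling, the 1 of 24 alternatives in which it passed. Leaving out 1 mouse moved it between -0.59 and -0.19, the latter without KO female 2 (adjusted p = 0.537, limma).

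The composition of hepcidin transcripts therefore differed between groups. Hamp2 made up 31.3 to 41.5% of the summed Hamp and Hamp2 TPM in WT females, 1.00 to 4.32% in WT males, 1.87 to 2.42% in KO females and 0.303 to 1.07% in KO males. The sum was 4393 ± 566 TPM in WT females, 1527 ± 378 in WT males, 1755 ± 729 in KO males and 1580 ± 767 in KO females (SD, n = 3 each). WT females stood apart in both quantities, and the other 3 groups overlapped in the sum. The genes lie 17.7 kb apart on chromosome 7, and their lowest-numbered GENCODE transcripts were identical at 94.6% of 410 aligned bases. Of the 50-base windows of Hamp, 16.6% also occur in Hamp2, and no 100-base window does. Reads within shared stretches could have been divided between the genes, so both values carry that uncertainty. In KO male 2, Hamp2 held 0.303% of the sum while Hamp stood at 1998 TPM.

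**Figure D3:**
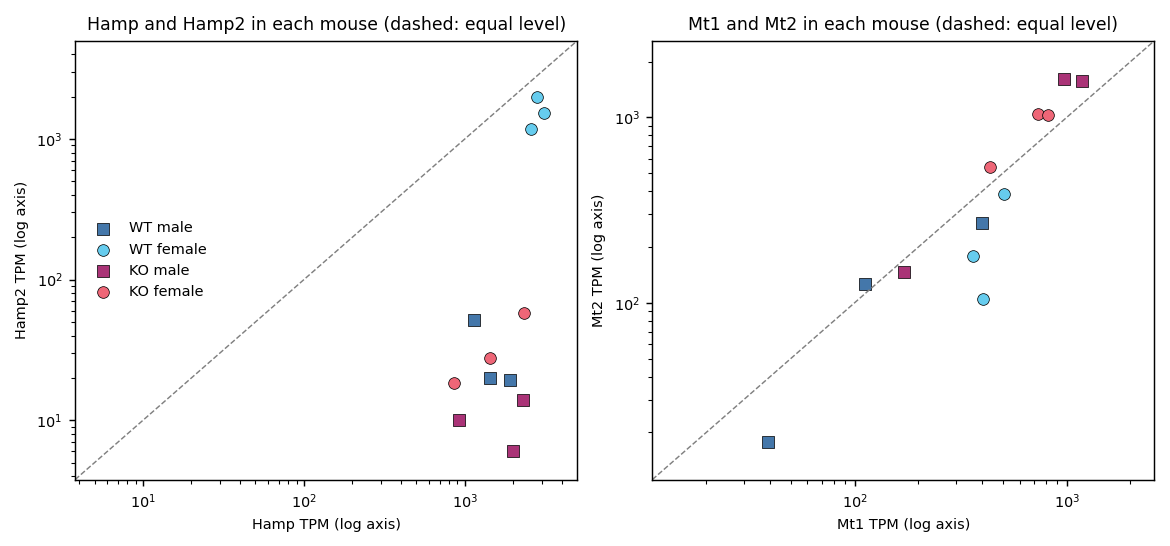
Hamp2 against Hamp (left) and Mt2 against Mt1 (right) in each mouse, TPM on log axes, with a dashed line of equal level. The 3 WT females lie within 2.19-fold of the line for hepcidin and every other mouse lies at least 22.2-fold below it, while for the metallothioneins 5 of the 6 KO mice lie above the line and 5 of the 6 WT mice below it. Where a mouse lies relative to the line also depends on the gene lengths used for TPM.

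Bmp6, the ligand gene, rose in both sexes. It was at 1.07, 1.49 and 1.75 TPM in WT males, 1.72, 1.83 and 1.36 in WT females, 25.3, 10.6 and 30.3 in KO males and 18.9, 12.2 and 20.3 in KO females. Every KO value lay above every WT value. The difference was 2.95 (SE 0.221, limma adjusted p = 2.23e-07), which is 7.71-fold on the log2(TPM + 1) scale, and 2.58 after rescaling. With a pseudocount of 5 TPM in place of 1 it was 1.86, and it passed there too. It was 3.13 in males and 2.76 in females. The lowest WT value rested on an estimated 46 reads, with a counting error of 14.8%. Sinusoidal endothelial markers, the cells in which Bmp6 is mainly made, summed to 76.6 to 117 TPM in WT and 51.9 to 176 TPM in KO. Of those 10 markers 2 rose and 2 fell (0 rose and 3 fell after rescaling), and all were above 0 in every library. Stellate cell markers summed to 65.2 to 168 TPM in WT and 122 to 301 TPM in KO. Of the 8, 4 rose as deposited, and after rescaling 2 rose (Col1a1, 4.01 as deposited, and Pdgfrb, 1.84) and 2 fell, with all 8 above 0 in every library. Biliary markers summed to 37.5 to 67.9 TPM in WT and 264 to 729 TPM in KO. Most of that sum was Spp1, at 21.9 to 52.5 TPM in WT and 232 to 702 TPM in KO (3.76), and the other 6 markers summed to 12.4 to 17.5 and 22.8 to 33.5 TPM. Of the 5 tested, 3 rose and 1 fell (2 and 1 after rescaling), with Sox9 (1.57) higher and Epcam (-0.35) lower, while Krt19 did not pass (-0.12). Over all genes 50.1% rose and 4.82% fell as deposited, and 20.9% and 18.7% after rescaling, so the endothelial, stellate and biliary counts are read against those shares. The part of any of these cells in the Bmp6 difference was not tested.

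Tfr2 was at 205, 222 and 207 TPM in WT males, 197, 232 and 231 in WT females, 274, 296 and 317 in KO males and 247, 247 and 270 in KO females. The genotypes did not overlap, yet the change was small, 0.35 (SE 0.0921, limma adjusted p = 0.00636), the same as the median of all genes. After rescaling its sign turned, to -0.12 (adjusted p = 0.340, limma).

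Other genes of the BMP and SMAD pathway moved on balance as all genes did. Of 26 tested, 14 rose and 1 fell, with a median of 0.36 beside 0.35 over all genes, of which 50.1% rose and 4.82% fell. After rescaling 4 rose and 6 fell, beside 20.9% and 18.7% of all genes, with a median of -0.04, equal to that of all genes. Fkbp1a, whose product holds BMP type I receptors inactive, rose by 1.42 (0.97 rescaled) and Hjv, the BMP co-receptor hemojuvelin, by 1.15 (0.69 rescaled). Among targets of the pathway, Id3 rose by 1.37 (0.91 rescaled), Smad7, a feedback inhibitor, by 0.85 (0.48 rescaled), and these with Fkbp1a and Hjv were the 4 that rose on both scales. Id1 was at 0.90 and Atoh8 at 0.98 as deposited, and neither passed after rescaling (0.50 and 0.54). Hfe, the haemochromatosis gene whose product partners with transferrin receptors, passed at 0.73 as deposited and stood at 0.28 after rescaling. Tmprss6, a protease that cleaves hemojuvelin, passed at 0.27 as deposited and stood at -0.20 after rescaling. Bmp2, the other endothelial BMP ligand of hepcidin control, fell by 0.72 (limma adjusted p = 0.0153) and by 1.10 after rescaling. Its levels were 5.43 to 8.37 TPM in WT males and 1.81 to 3.42 TPM in KO males, without overlap. In females 4.88 to 6.98 TPM in WT overlapped 3.30 to 7.61 TPM in KO. The male effect on Bmp2 minus the female one was -0.99 and did not pass (limma adjusted p = 0.43).

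In the IL-6 and STAT3 list, 8 of 12 tested genes rose and 4 did not pass, with a median of 0.59 beside 0.35 over all genes, of which 50.1% rose. After rescaling 3 rose (Socs3, Il1b and Stat3) and 3 fell (Il6ra, Creb3l3 and Cebpa), beside 20.9% and 18.7% of all genes, with a median of 0.15 beside -0.04. These genes beyond the largest changes were named after their values were seen. Socs3, the feedback inhibitor of STAT3 signalling, was at 2.95 to 16.3 TPM in WT and 24.6 to 113 TPM in KO, a difference of 2.68 (2.25 rescaled, limma adjusted p = 2.93e-05 as deposited). The acute phase genes Saa1 and Saa2 were at 2.08 and 2.52 as deposited, and neither passed after rescaling (adjusted p = 0.0829 and 0.0579, limma). Saa1 was at 2030 TPM in WT male 2, above every KO value, and at 53.2 to 268 TPM in the other 5 WT mice, while KO mice held 322 to 1739 TPM. Without WT male 2, the library with a number from another series, the differences were 2.73 for Saa1 and 3.32 for Saa2. Hamp in WT male 2 was 1915 TPM, the highest of the WT males. Il1b rose by 1.52 (1.14 rescaled).

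Trf, already the gene of rank 15 by mean TPM in WT liver, was of rank 3 in KO liver. It was at 9356, 11781 and 9167 TPM in WT males, 9199, 9777 and 11433 in WT females, 28849, 27188 and 35318 in KO males and 26477, 28141 and 32852 in KO females. No KO value overlapped a WT value. As a share of the library, Trf transcripts went from 1.01% ± 0.118 in WT to 2.98% ± 0.350 in KO (SD, n = 6 each). The difference was 1.56 (SE 0.134, limma adjusted p = 8.15e-07), a 2.95-fold rise, and 1.09 after rescaling (adjusted p = 1.47e-04). It was 1.59 in males and 1.52 in females.

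Tfrc, which carries the iron-responsive letters in its 3′ UTR, was at 17.2, 19.0 and 6.70 TPM in WT males, 15.8, 9.09 and 3.29 in WT females, 15.9, 13.3 and 36.4 in KO males and 8.73, 15.2 and 13.6 in KO females. The groups overlapped throughout. The difference of 0.56 (SE 0.346) had a limma adjusted p of 0.184, and it was 0.13 after rescaling. Leaving out 1 mouse moved it between 0.32 and 0.76, with 0.13 to 0.83 in males and 0.02 to 1.01 in females. Proliferation markers, which accompany Tfrc in dividing cells, summed to 4.52 to 8.67 TPM in WT and 18.1 to 35.1 TPM in KO, and all 7 rose on both scales, beside 50.1% of all genes as deposited and 20.9% after rescaling. Erythroid markers summed to 789 to 2168 TPM in WT and 567 to 3399 TPM in KO. The part of either in the Tfrc values was not tested.

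Genes for the uptake of iron, haem and haemoglobin had the highest median of the 7 pathway lists. Of 19 tested, 13 rose and 6 did not pass, beside 50.1% of all genes that rose, with a median of 1.36 (0.35 over all genes). After rescaling 11 rose and 3 fell (Cd163, Slc46a1 and Timd2, named after their values were seen), beside 20.9% and 18.7% of all genes, with a median of 0.90 (-0.04 over all genes). Lcn2, a siderophore-binding acute phase protein, was at 6.81 to 67.0 TPM in WT and 824 to 2252 TPM in KO, a difference of 6.06 (5.60 rescaled). Scara5, a ferritin receptor, was at 0 to 8.85 TPM in WT and 9.34 to 30.5 TPM in KO, a difference of 2.91 (2.54 rescaled). Hp, which encodes haptoglobin, was at 2168 to 6800 TPM in WT and 12720 to 16460 TPM in KO (2.13, 1.66 rescaled). Slc11a1, an iron and manganese transporter of phagocytes, was at 1.81 to 3.55 TPM in WT and 11.4 to 18.9 TPM in KO (2.12, 1.73 rescaled). The genotypes did not overlap for any of these 4, which were named as the largest changes of the list. Of all tested genes 28.7% showed such a separation with KO above WT. The Kupffer cell and macrophage markers given above moved with Slc11a1. The 9 neutrophil markers summed to 0.374 to 18 TPM in WT and 12 to 46.3 TPM in KO, and Ly6g was at 0 in 10 libraries. Of the 5 tested, 4 rose as deposited and 1 after rescaling, beside 50.1% and 20.9% of all genes. The part of either cell type in these differences was not tested. Slc39a14, the transporter of iron not bound to transferrin, was at 52.6 to 79.3 TPM in WT and 54.9 to 121 TPM in KO and did not pass over both sexes (0.31, limma adjusted p = 0.0769; -0.15 rescaled). In males it passed (0.52, limma adjusted p = 0.0380), with 57.2 to 79.3 TPM in WT and 81.1 to 121 TPM in KO. That call was lost without WT male 2 or 3, KO male 1 or 2, WT female 1 or KO female 3. In females it was 0.10, and the interaction did not pass (adjusted p = 0.677, limma).

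**Figure D4:**
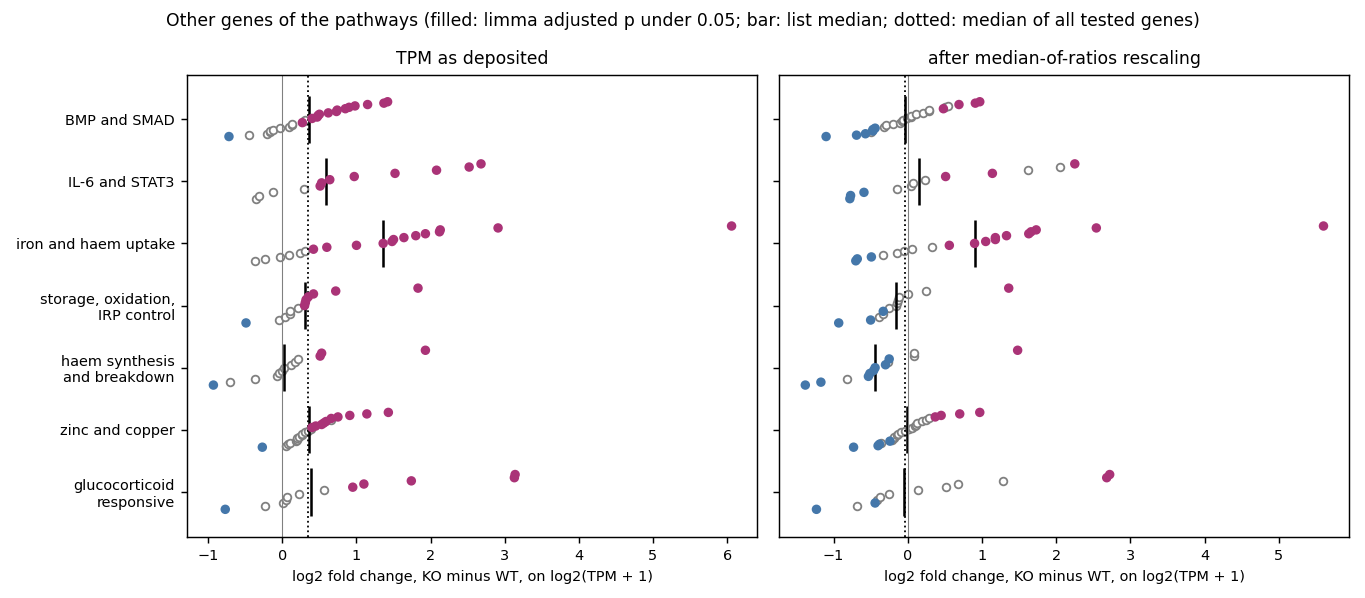
Log2 fold changes, KO minus WT, of the tested genes of 7 pathway lists, for TPM as deposited (left) and after rescaling (right); filled points passed the adjusted threshold, bars mark list medians and the dotted line the median of all genes. The median of the iron and haem uptake list, 1.36 and 0.90, lies to the right of the dotted line in both panels, and that of the BMP and SMAD list, 0.36 and -0.04, lies close to it.

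Fth1 transcripts rose in each sex as deposited, and over both sexes together on both scales. They were at 1270, 1023 and 1187 TPM in WT males, 1372, 1219 and 1443 in WT females, 2312, 2220 and 1780 in KO males and 2231, 2219 and 2416 in KO females. Every KO value lay above every WT value. The difference was 0.81 (SE 0.105, limma adjusted p = 2.93e-05), a 1.76-fold rise, and 0.35 (adjusted p = 0.0492) after rescaling. In males 0.86 fell to 0.28 after rescaling (adjusted p = 0.321, limma) and in females 0.77 to 0.42 (adjusted p = 0.125), and neither passed there. Ftl1, the light chain, was at 5305 to 7442 TPM in WT and 7914 to 12587 TPM in KO, also without overlap. Its difference of 0.72 fell to 0.25 after rescaling and no longer passed (adjusted p = 0.209, limma).

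Slc40a1, the exporter, was at 29.0, 27.1 and 69.8 TPM in WT males, 59.3, 58.6 and 81.4 in WT females, 71.6, 76.5 and 106 in KO males and 123, 81.0 and 102 in KO females. WT male 3 stood at the level of the WT females, and the lowest KO male value lay just above it. The difference over both sexes was 0.86 (SE 0.224, limma adjusted p = 0.00552) as deposited and 0.40 (adjusted p = 0.115) after rescaling. In males it was 1.11 (adjusted p = 0.0116), and it did not pass without WT male 2 (0.87, adjusted p = 0.0512) or without KO male 3 (0.94, adjusted p = 0.0551). Without WT male 3 it was 1.54. In females it was 0.61 (adjusted p = 0.153, limma), and it passed without WT male 3 (adjusted p = 0.0331). Macrophages also express Slc40a1. Their markers, given above, moved with it, and their part in the difference was not tested.

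Of 13 tested genes of iron storage, oxidation and regulation, 7 rose and 1 fell, a share near the 50.1% of all genes that rose (4.82% fell), with a median of 0.30 beside 0.35. After rescaling 1 rose and 3 fell, beside 20.9% and 18.7% of all genes, with a median of -0.16 beside -0.04. Cp, which encodes the ferroxidase ceruloplasmin, rose on both scales (1.83 and 1.36), from 249 to 447 TPM in WT to 792 to 1452 TPM in KO. Ireb2, which encodes iron regulatory protein 2, fell on both (-0.49 and -0.93), with 22.1 to 38.8 TPM in WT and 18.4 to 24.1 TPM in KO. The other 2 that fell after rescaling were the hypoxia factors Hif1a and Epas1, named after their values were seen. Aco1, for iron regulatory protein 1, did not pass as deposited (0.21, limma adjusted p = 0.124). Fbxl5, the iron sensor that directs degradation of iron regulatory proteins, was at 0.42 as deposited and 0.00 after rescaling.

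Among 13 genes of haem synthesis and breakdown, 3 rose and 1 fell as deposited, beside 50.1% and 4.82% of all genes, with a median of 0.02 (0.35 over all genes). After rescaling 1 rose and 8 fell, beside 20.9% and 18.7% of all genes, with a median of -0.44 (-0.04 over all genes). Hmox1, the inducible haem oxygenase that frees iron from haem, was the gene that rose on both scales (1.93 and 1.48), from 9.82 to 19.1 TPM in WT to 52.2 to 70.5 TPM in KO. Hmox1 is abundant in macrophages, and its rise accompanied that of their markers. The part of macrophages in the Hmox1 difference was not tested. Cpox, an enzyme of haem synthesis, fell on both scales (-0.93 and -1.38). Hmox2 and Uros were at 0.53 and 0.51 as deposited and both at 0.08 after rescaling.

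Alas2, which encodes the erythroid form of the first enzyme of haem synthesis, differed between the sexes in the opposite direction to Hamp2. It was at 117, 114 and 121 TPM in WT males, 15.4, 17.9 and 11.6 in WT females, 28.4, 30.1 and 36.3 in KO males and 25.1, 40.9 and 37.0 in KO females. KO livers of either sex lay between the WT sexes. Alas2 was therefore lower in KO males (-1.87, limma adjusted p = 1.36e-05) and higher in KO females (1.14, adjusted p = 7.26e-04). The male effect minus the female one was -3.0 (SE 0.275, adjusted p = 4.29e-05, limma). It was the 1 gene of the 119 tested pathway genes that passed this interaction, and it was named after its values were seen. Over both sexes Alas2 did not pass (-0.37, adjusted p = 0.490, limma). The other erythroid markers tested were 4 globin genes, which passed neither over both sexes nor in either sex as deposited, and Klf1, which encodes an erythroid transcription factor. Klf1 was at 6.91, 6.53 and 11.7 TPM in WT females and 3.18, 1.90 and 2.75 TPM in KO females, without overlap, and fell there by 1.35 (adjusted p = 0.00742, limma). In males it was at -0.05. Over both sexes it was at -0.70 (adjusted p = 0.0535, limma) as deposited and passed after rescaling (-1.03, adjusted p = 0.0111). Its interaction did not pass (adjusted p = 0.421, limma). Klf1, too, was named after its values were seen.

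Both metallothioneins rose in KO livers as deposited, with a wide spread among males. Mt1 (chr8:94179082-94180327) was at 400, 112 and 38.9 TPM in WT males, 403, 361 and 506 in WT females, 971, 1179 and 172 in KO males and 734, 434 and 819 in KO females. WT male 3 and KO male 3 held the lowest value of their groups, and the genotypes overlapped. The difference was 1.43 (SE 0.571, limma adjusted p = 0.0475) as deposited and 0.97 (adjusted p = 0.214) after rescaling. It passed in 7 of 24 alternative analyses and in 4 of the 12 that left out 1 mouse. The call was lost without WT male 2 or 3, WT female 1 or 2, KO male 1 or 2, or KO female 1 or 3, with limma adjusted p of 0.0582 to 0.109. In males it was 2.26 (adjusted p = 0.0291), lost without WT male 2 or 3 or KO male 1 or 2, with values from 1.45 without WT male 3 to 3.13 without KO male 3, and in females 0.61 (adjusted p = 0.580, limma).

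Mt2 (chr8:94172664-94173568), 5.51 kb from Mt1, was at 271, 126 and 17.8 TPM in WT males, 105, 178 and 385 in WT females, 1622, 1564 and 147 in KO males and 1039, 544 and 1031 in KO females. In females the genotypes did not overlap. Among males, KO male 3 lay within the WT range. The difference was 2.58 (SE 0.688, limma adjusted p = 0.00634), 5.99-fold, and 2.12 (adjusted p = 0.0334) after rescaling. The male difference of 3.06 (adjusted p = 0.0230, limma) did not pass without WT male 3 (1.96), KO male 1 (2.48) or KO male 2 (2.50), with adjusted p between 0.0827 and 0.0849, and it was 4.2 without KO male 3. The female difference was 2.10 (adjusted p = 0.119, limma), and it passed in a fit of the females alone (adjusted p = 0.00773), in which the wide spread of the males does not enter. In a fit of the males alone the male difference did not pass (adjusted p = 0.0523, limma). The ratio of Mt2 to Mt1 was 0.261 to 1.12 in WT and 0.855 to 1.67 in KO, so the genotypes overlapped in the ratio as well. The lowest-numbered GENCODE transcripts of Mt1 and Mt2 were identical at 67.9% of aligned bases and share no 50-base window.

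Of 24 tested genes of zinc and copper handling, 10 rose and 1, Slc31a1, fell, beside 50.1% and 4.82% of all genes, with a median of 0.36 (0.35 over all genes). The Slc31a1 call (-0.27, limma adjusted p = 0.0392) was lost, leaving 0 genes lower, without WT male 3, any 1 of the WT females, KO female 1 or KO female 2, and 2 genes were lower without KO male 2 or KO male 3. After rescaling 4 rose and 4 fell, beside 20.9% and 18.7%, with a median of -0.01 (-0.04 over all genes). The zinc importers Slc39a4 (1.43, 0.97 rescaled), Slc39a11 (1.14, 0.70 rescaled) and Slc39a1 (0.91, 0.45 rescaled) passed on both scales, as did Slc39a6, which like Slc31a1 was named after its values were seen. Slc30a1, the zinc exporter that metals induce together with metallothioneins, was at 0.56 as deposited and 0.12 after rescaling, where it did not pass. Atox1, a copper chaperone, was at 0.75 and 0.29. Mtf1, the zinc-sensing factor that binds the metal-responsive element, was at 3.02 to 5.30 TPM in WT and 3.62 to 6.13 TPM in KO and did not pass (0.20, limma adjusted p = 0.223).

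The glucocorticoid list held 12 genes, the receptor gene Nr3c1 and genes that the hormone commonly induces. Of these 5 rose and 1, Tsc22d3, fell, beside 50.1% and 4.82% of all genes, with a median of 0.39 (0.35 over all genes). After rescaling 2 rose, Igfbp1 and Cdkn1a, and 2 fell, Tsc22d3 and the receptor gene Nr3c1 (-0.44), beside 20.9% and 18.7% of all genes. Tsc22d3 and Nr3c1, and below Sgk1 and Fkbp5, were named after their values were seen. Igfbp1, an insulin-regulated binding protein as well, was at 1482, 644 and 41.8 TPM in WT males, 27.6 to 101 TPM in WT females and 838 to 2055 TPM in KO. WT male 3 was low among WT males in Igfbp1, in Cdkn1a (0.845 against 26.9 and 27.2 TPM) and in both metallothioneins. KO male 3, lowest of the KO males in both metallothioneins, was lowest in Igfbp1 (848 TPM) but not in Cdkn1a (39 against 72.9 and 18.7 TPM). WT females held 0.763 to 1.36 TPM of Cdkn1a and 361 to 506 TPM of Mt1. Cdkn1a, a cell cycle inhibitor, was at 3.13 (2.72 rescaled) by genotype, and Dusp1 and Zbtb16, which passed only as deposited, were at 1.74 and 1.10. Over all genes 29.1% were higher in females and 43.3% in males. The 5 genes that rose, Igfbp1, Cdkn1a, Dusp1, Zbtb16 and Sgk1, passed in females and not in males. In females they stood at 1.38 to 4.48 (adjusted p = 0.00157 to 0.0180, limma) and in males at 0.32 to 1.91 (adjusted p = 0.110 to 0.637). None of their interactions passed (adjusted p = 0.405 to 0.627, limma). The part of these inputs in the metallothionein differences was not tested.

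The sexes were then compared directly. In WT, 1 of the 10 genes differed, Hamp2, which was 5.76 higher in females (SE 0.436, limma adjusted p = 2.95e-06), while 5.74% of all genes differed. Hamp was 0.95 higher in WT females without overlap of the 6 values, and it did not pass (adjusted p = 0.141, limma). In KO none of the 10 passed limma, 1 had an unadjusted p under 0.05, and 0.0814% of all genes passed (10 genes, and 6 without KO male 2). The member with that unadjusted p was Hamp2, at 1.6 (adjusted p = 0.692), with 18.3 to 57.9 TPM in KO females and 6.06 to 13.9 TPM in KO males.

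Within each sex, in the model of 4 groups that share 1 spread, 8 of the 10 genes differed by genotype in males (7 higher, 1 lower) and 4 in females (Bmp6, Trf and Fth1 higher, Hamp2 lower), against 46.1% (43.3% higher, 2.81% lower) and 33.8% (29.1% higher, 4.68% lower) of all genes. After rescaling, 3 passed in males (Bmp6, Trf and Hamp2) and 4 in females (Bmp6 and Trf higher, Hamp and Hamp2 lower), against 24.1% and 26.1%. Fitted on the mice of 1 sex alone, 6 passed in males, where Mt1 and Mt2 did not (adjusted p = 0.0707 and 0.0523, limma). In females 7 then passed, with Hamp, Slc40a1 and Mt2 added (adjusted p = 0.0435, 0.0389 and 0.00773, limma). Of all genes 35.5% passed in the fit of males alone and 36.2% in that of females alone. These counts do not by themselves show that the sexes differ. The interaction, the male effect minus the female one, passed for 1 gene, Hamp2, at 4.16 (SE 0.616, limma adjusted p = 0.00355), and 0.912% of all genes passed it (112 genes, and 75 to 176 on leaving out 1 mouse, the most without WT male 3). For Hamp it was 1.14 (adjusted p = 0.566), for Mt1 1.65 (adjusted p = 0.684) and for Bmp6 0.37 (adjusted p = 0.807), and the 9 genes other than Hamp2 had adjusted p of 0.566 to 0.999 by limma. On leaving out 1 mouse the interaction ranged from 0.77 to 1.54 for Hamp, 0.84 to 2.53 for Mt1 and 0.09 to 0.81 for Bmp6.

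**Figure D5:**
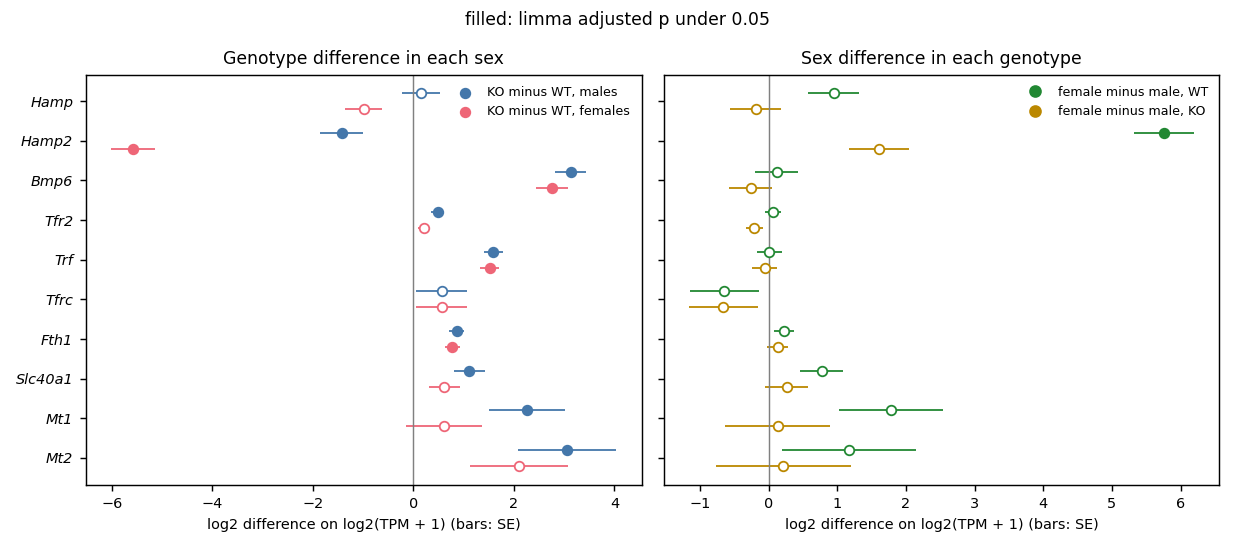
Left, genotype differences of the 10 genes in males and in females; right, female minus male differences in WT and in KO; points are log2 differences with standard errors, filled where they passed the adjusted threshold. Hamp2 lies at -5.58 in females and -1.43 in males on the left, and at 5.76 in WT and 1.6 in KO on the right.

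The authors' deposited table gives its own comparison of KO with WT, with FDR rounded to 2 decimals. In the authors' deposited table Bmp6 was at 3.22, Mt2 at 1.93, Trf at 0.94, Slc40a1 at 0.82 and Hamp2 at -2.62, each with an FDR of 0.01 or less. The authors' deposited table placed Hamp (-0.57), Fth1 (0.35) and Mt1 (0.89) at FDR of 0.20, 0.40 and 0.18. For Tfr2 (-0.22) and Tfrc (-0.52) the sign in the authors' deposited table was opposite to that of the TPM as deposited, and neither passed there (FDR 0.60 and 0.21). On the rescaled scale Tfr2, at -0.12, had the authors' sign, and Tfrc, at 0.13, did not.

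Likeness of pattern was described by Pearson's r of log2(TPM + 1) over the 12 mice, which share the group structure, and carries no test. The genes most like Hamp were Tapt1 (r = 0.857), Cox16 (0.837) and Sat2 (0.831). Those most like Tfrc were Rrp12 (0.953), Psme3 (0.951) and Wfs1 (0.937), each with overlapping genotypes. Those most like Mt1 were the ubiquitin gene Ubb (0.933), Mt2 (0.928) and the histone gene H4c8 (0.924).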

How the data were processed

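Bulk RNA of 12 whole mouse livers had been extracted with Trizol and sequenced as Illumina libraries, per the labels' protocols. The authors deposited TPM per gene and library, each column summing to a fixed total. They also deposited a fold change, log2 fold change and FDR p-value of KO against WT, per the file headers. The submitters' processing notes name GRCm38 and edgeR, without saying for which step, and the aligner, counter, read length and use of strand are not given in the sources used here. The number of reads per library is not given in the file, and the depth is an estimate.

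The genes whose mean TPM reached 0.5 were fitted as log2(TPM + 1) with limma 3.58.1 in R 4.3.3 (eBayes with intensity trend, two-sided). The fit was tested on simulated data. Fold changes on this scale understate those of low genes. The 12278 tested genes share 1 Benjamini-Hochberg adjustment with a threshold of 0.05. The genotype comparison had sex as covariate, and the others came from the means of the 4 groups, a model in which all groups share 1 spread. Replicates were separate mice numbered in order of deposition. All 10 genes were named, with up to 4 of the largest changes past the threshold per pathway list and a short list of known regulators, and exceptions are said to be so. The members and lists were chosen with earlier results of these data known. Upstream sequences were those of RefSeq and were aligned with Biopython 1.88, and transcripts were those of GENCODE M21. The alternatives were other pseudocounts, filters, rescalings and variance settings, a covariate for animal numbers, and leaving out mice.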

Additional observations from a re-analysis of the deposited data

Results flagged for a closer look

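The genotype difference of Hamp2 differed between the sexes. The male effect minus the female effect was 4.16 on the log2 scale (limma adjusted p = 0.00355), with all 3 KO females below all 3 WT females and all 3 KO males below all 3 WT males. It passed in all 23 alternative analyses, between 3.79 and 4.6.

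The genotype difference of Alas2 differed between the sexes in the other direction, by -3.0 (limma adjusted p = 4.29e-05). All 3 KO males were below all WT males and all 3 KO females were above all WT females. It passed in all 23 alternative analyses, between -3.23 and -2.71.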

How the results depend on the processing

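With 24 alternatives per genotype comparison and 23 for the others, 1449 of 1551 recomputed values of the 10 genes and Alas2 kept their direction and side of the threshold, 42 lost it, 12 gained it and 48 changed sign. Hamp2, Bmp6, Trf, Fth1 and Mt2 passed by genotype in every alternative, Hamp2 between -3.95 and -3.11. By genotype, the sign changed for Tfr2 after rescaling (-0.12 over both sexes, -0.10 in males and -0.14 in females) and for Hamp in males (-0.43 rescaled and -0.048 rescaled without the Mup genes, and -0.11 to 0.56 on leaving out 1 mouse). The other sign changes were in sex differences and interactions that passed in no analysis. After rescaling, Bmp6 (-0.022), Tfr2 (-0.17), Trf (-0.22) and Fth1 (-0.012) turned by sex in WT, and the interactions of Trf (-0.16), Tfrc (-0.22) and Fth1 (-0.14) turned. Rescaling without the Mup genes turned Tfr2 (-0.085) and Trf (-0.13) by sex in WT and the interactions of Trf (-0.067), Tfrc (-0.12) and Fth1 (-0.049). The Tfrc interaction also turned with a pseudocount of 0.1 (-0.033) and on rescaling without the 20 most abundant genes (-0.026). A covariate for 2 females whose animal numbers lie far from the others turned Trf by sex in WT (-0.0033) and Mt2 by sex in KO (-0.11). Leaving out both females turned Trf by sex in WT (-0.081) and in KO (0.0070) and its interaction (-0.089). On leaving out 1 mouse, Trf ranged from -0.081 to 0.12 by sex in WT. By sex in KO the ranges were -0.59 to 0.18 (Hamp), -0.69 to 0.023 (Bmp6), -0.15 to 0.052 (Trf), -0.74 to 0.64 (Mt1), -0.93 to 0.80 (Mt2) and -0.043 to 0.30 (Alas2). For interactions they were -0.044 to 0.18 (Trf), -0.44 to 0.54 (Tfrc), -0.0017 to 0.20 (Fth1) and -0.14 to 2.10 (Mt2). The cause was not tested. Of the 10 genes, 7 to 8 passed by genotype on leaving out 1 mouse and 6 after rescaling. In males 3 passed after rescaling and 5 to 8 on leaving out 1 mouse (5 without KO male 2). In females 7 passed with the sex fitted alone, which leaves 6 mice, and 4 to 5 on leaving out 1. By sex in WT 1 to 2 passed, the second being Slc40a1 (1.2, limma adjusted p = 0.00595) without WT male 3. The covariate for animal numbers ended the Mt1 call (adjusted p = 0.0569) and let Hamp pass in females (adjusted p = 0.0460). Over all genes, 4453 passed by genotype at a mean TPM of at least 5, 3762 in males and 2656 in females, with fewer genes left to test. After rescaling 2959 passed in males, and on leaving out 1 mouse 290 to 1696 passed by sex in WT. The main analysis gave 6745 by genotype, 5663 in males, 4151 in females and 705 by sex in WT. Among the pathway lists, leaving out 1 mouse also moved 4 counts of lower genes by 1: haem (2) and uptake (1) without WT male 2, IL-6 and STAT3 (1) without KO male 2, and BMP and SMAD (2) without KO female 3. No paired analysis was possible because the labels give no replicate numbers shared across groups. Counting error limits Hamp2 most, at an estimated 33 reads in its lowest library.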
